A study of Mus musculus with 8 samples.

Results

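The Mas-related G protein-coupled receptors (Mrgpr genes) were followed in mammary glands of mice in which Cre could delete 1 or both copies of Sox9. The listed members were Mrgprg, Mrgpre, Mrgprf, Mrgprd, Mrgprh, Mrgprb1 and Mrgprb2, and all 7 were measured among the 19938 genes tested. Each was represented by the probe set that the platform annotation pairs with its symbol alone, and each had 1 such probe set. The family was chosen by the measured difference of Mrgprg between the genotypes, so the values of Mrgprg are a description without a test. The other 6 were listed by family name, with earlier results of these data known. A further 11 Mrgpr genes were measured but not listed.

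The glands came from 8 virgin females, 5 weeks old, of a C57BL/6 X FVB background. In 4 of them Sox9 was flanked by recombination sites on both copies (MMTV-Cre;Sox9flox/flox, called flox/flox), and in the 4 controls on 1 copy only (MMTV-Cre;Sox9+/flox, called flox/+). All 8 carried MMTV-Cre, a recombinase driven by a viral promoter that is active in mammary epithelium and in several lines also outside it. The labels do not name the line. Each sample was the lymph node end of mammary gland number 4, a piece of whole tissue with fat, stroma, vessels, nerves and immune cells, and was read on a separate Affymetrix Gene 1.0 ST array. In such tissue fewer cells of a type and less RNA per cell cannot be told apart. The labels do not say whether any of the mice were littermates.

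Mas-related receptors are seven-transmembrane proteins named after their likeness to the MAS receptor. In mice the subfamilies of Mrgpra and Mrgprb genes have expanded into many close copies, while Mrgprd, Mrgpre, Mrgprf, Mrgprg and Mrgprh are single genes. They are best known from small sensory neurons of itch and pain, and some Mrgprb members from mast cells, where small cationic peptides set off degranulation. What most of them do in the mammary gland is not established.

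Glands of both genotypes carried the markers of mammary tissue. In both genotypes all 13 luminal and 10 adipocyte markers measured, and 9 of 10 basal markers, had means above the 95th percentile of the olfactory receptor genes, which served as a guide to background because these genes are not expected to be transcribed here. The 1027 olfactory receptor genes had a median intensity of 51.3, a 95th percentile of 145.4 and a highest mean of 490.2. The remaining basal marker, Lgr5, had a mean of 140.8 in flox/+ and 210.7 in flox/flox glands. Of the 13 luminal markers 0 passed limma's test over all genes, and 1, Gata3, was lower in flox/flox at an unadjusted p under 0.05. Over all genes 5.46% were lower at that p. The log2 difference of Gata3 was -0.48 ± 0.14 (SE), and its groups did not overlap, as held for 3.16% of all genes in that direction. Of 9 Schwann cell markers 7 lay above that percentile, and of 22 sensory nerve markers 5 did. Sox9, the targeted gene, read 424, 448, 401 and 366 in flox/+ replicates 1 to 4 and 298, 356, 287 and 351 in flox/flox replicates 1 to 4. Its groups did not overlap, with a log2 difference of -0.33 ± 0.09 (SE) that did not pass limma's test over all genes (adjusted p = 0.256). Whether its probes lie in the deleted part was not analysed here. B cell markers were high in 1 control, flox/+ replicate 2, where their summed intensity was 4483 against at most 815 in any flox/flox gland.

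Mrgprg encodes an orphan receptor of the family, with no settled ligand. It was low in every control and high in every flox/flox gland. The controls read 97.7, 116.2, 95.01 and 90.5 in replicates 1 to 4, a 1.28-fold spread. The flox/flox glands read 3776, 1351, 2561 and 2378, a 2.79-fold spread. Every flox/flox gland thus lay far above every control, and the lowest of them was 11.6 times the highest control. The mean was 99.9 ± 11.3 (SD, n = 4) in flox/+ and 2517 ± 994 (SD, n = 4) in flox/flox glands. The ratio of these means was 25.2. On the log2 scale with an offset of 16 the difference was 4.36 ± 0.24 (SE). The values as deposited, before quantile normalization, gave the same picture, with 85.5 to 120.7 in controls and 1391 to 3660 in flox/flox glands.

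The control level could not be told from background, whereas the flox/flox level lay above it. Of the 1027 olfactory receptor genes 136 (13.2%) had a mean above the control mean of Mrgprg, and 0 had a mean above its flox/flox mean. The ratio between the genotypes therefore depends on how much of the control reading is background, and with the offset set to 1 or 64 the log2 difference was 4.56 or 3.89. Single intensities of that order do not show transcript on this array: the Y-linked gene Sry, absent from females, read between 254 and 342. Sry was the brightest of the 7 Y-linked genes measured. The other 6 had means below the 95th percentile of the olfactory receptor genes in both genotypes. Among them Usp9y had means of 105.4 in flox/+ and 101.1 in flox/flox glands.

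**Figure D1:**
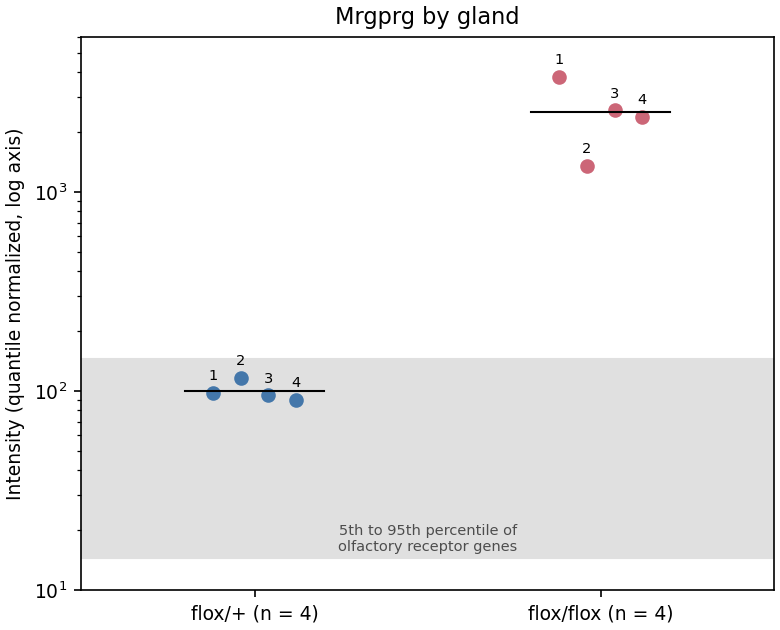
Intensity of Mrgprg in each gland on a log axis, after quantile normalization, with points numbered by replicate and horizontal lines at the mean of the 4 glands of a genotype; the grey band spans the 5th to 95th percentile (14.5 to 145.4) of the mean intensities of 1027 olfactory receptor genes. The 4 flox/+ glands sit inside the band between 90.5 and 116.2, and the 4 flox/flox glands sit above it between 1351 and 3776.

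The promoter of Mrgprg is shown because the reading of the gene lay at background in controls and far above it in flox/flox glands. It lies on the minus strand at chr7:143766944-143767243 (GRCm38.p6, sequence from RefSeq), from 250 bases before to 50 bases after the annotated gene start, which is the capital letter.
Mrgprg: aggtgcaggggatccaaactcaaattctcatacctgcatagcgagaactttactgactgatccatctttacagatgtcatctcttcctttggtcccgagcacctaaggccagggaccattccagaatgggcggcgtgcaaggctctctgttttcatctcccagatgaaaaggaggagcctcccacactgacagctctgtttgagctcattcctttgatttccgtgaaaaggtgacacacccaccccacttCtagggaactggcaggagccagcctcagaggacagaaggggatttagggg
The window holds no ACAATG, a core of the sites that SOX proteins bind, on either strand. That motif occurs in 12.6% of the 32851 promoter windows of this length in the table. The motif AGATAA, bound by zinc finger factors of blood and luminal cells, is also missing, and 11.2% of windows hold it. The core promoter motif TATAAA is missing too and occurs in 13.6% of windows. Likewise absent is TGACTCA, an AP-1 motif, which 5.2% of windows hold. Both strands were searched for each. These motifs were picked after the sequences had been read, and a missing match says only that these letters are absent from this window.

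Mrgprg lies on chromosome 7 between Osbpl5, a gene for an oxysterol-binding protein, and Mrgpre. Of the 5 nearest annotated genes on each side 8 were measured, and 0 of the 8 passed limma's test at an adjusted p of 0.05. Of all genes tested 8 (0.0401%) passed, 0.0301% higher and 0.01% lower in flox/flox. Mrgprg, chosen for its difference, is counted among those that passed. Osbpl5 read 327.7 ± 16.1 in flox/+ and 358.3 ± 28.2 in flox/flox glands (SD, n = 4), a log2 difference of 0.12 ± 0.07 (SE). Beyond Osbpl5 the death receptor family genes Tnfrsf23, Tnfrsf22 and Tnfrsf26 differed by -0.04, 0.07 and -0.02. On the other side, beyond Mrgpre, the NAD synthetase gene Nadsyn1 differed by 0.06, the sterol synthesis gene Dhcr7 by 0.20 and the actin-like gene Acte1 by -0.12. All 8 neighbours, Mrgpre included, lay between -0.12 and 0.23, so no gene beside Mrgprg showed a difference near its size. The 2 others, E230032D23Rik and Mir6404, had no probe set of their own symbol.

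**Figure D2:**
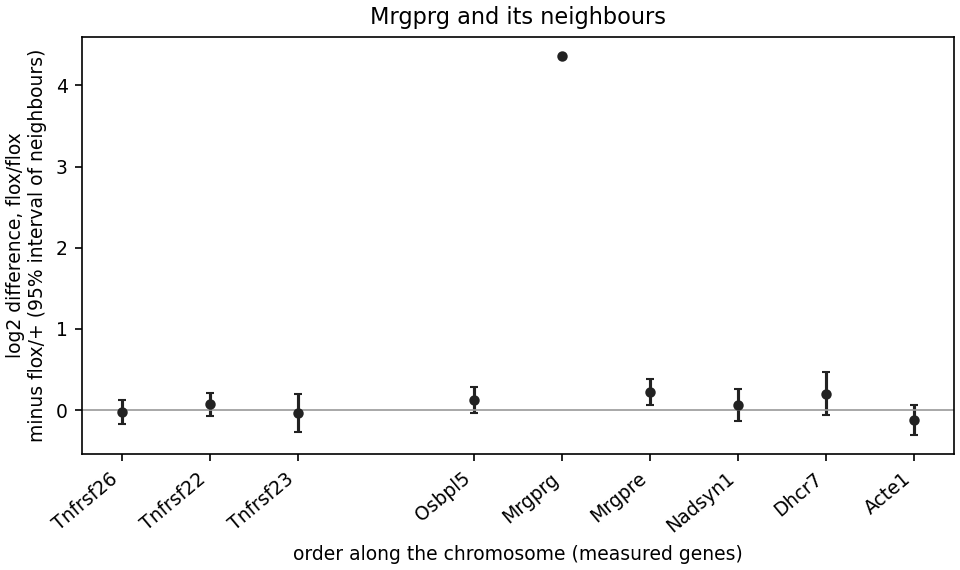
Log2 difference between genotypes, with positive values higher in flox/flox (n = 4 glands each), for Mrgprg and the measured genes among its 5 nearest annotated neighbours on each side, in chromosome order; bars are limma's 95% intervals and are drawn for the neighbours only. Mrgprg stands at 4.36 and the neighbours between -0.12 and 0.23.

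Mrgpre, the gene next to Mrgprg, encodes another orphan receptor. It read 121.3, 109.1, 119.8 and 131.2 in flox/+ replicates 1 to 4. It read 151.5, 130.0, 146.8 and 145.2 in flox/flox replicates 1 to 4. The flox/flox glands were higher on average, but flox/flox replicate 2 lay just below flox/+ replicate 4, so the groups overlapped. The log2 difference was 0.23 ± 0.07 (SE, 95% interval 0.06 to 0.39), with an unadjusted p of 0.0109 and an adjusted p of 0.315 in limma, so it did not pass. Both means, 120.3 and 143.4, lay below the 95th percentile of the olfactory receptor genes.

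Mrgprb1 and Mrgprb2 belong to a subfamily of which some members are known in mice from mast cells of connective tissue. Mrgprb2 is the receptor through which cationic peptides and a number of drugs activate mouse mast cells. Mrgprb1 read 49.0, 67.9, 57.6 and 73.3 in flox/+ replicates 1 to 4. It read 92.1, 93.6, 77.1 and 107.8 in flox/flox replicates 1 to 4. No flox/flox value fell into the range of the controls, with 77.1 in flox/flox replicate 3 just above 73.3 in flox/+ replicate 4. The means were 62.0 ± 10.8 and 92.6 ± 12.6 (SD, n = 4 each). The log2 difference of 0.48 ± 0.11 (SE, 95% interval 0.23 to 0.73) had an unadjusted p of 0.00146 and did not pass after adjustment over all genes (limma adjusted p = 0.195).

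Mrgprb2 read 35.6, 29.3, 35.5 and 31.3 in flox/+ replicates 1 to 4. It read 35.4, 35.9, 45.5 and 47.1 in flox/flox replicates 1 to 4. Flox/flox replicates 3 and 4 were the high glands, and replicates 1 and 2 lay at the level of the higher controls. The log2 difference was 0.22 ± 0.09 (SE, 95% interval 0.02 to 0.41; limma unadjusted p = 0.0328, adjusted p = 0.450). The pair did not share a gland order: the highest Mrgprb1 value and the highest Mrgprb2 value were both in flox/flox replicate 4, but flox/flox replicate 3 was the lowest of its genotype for Mrgprb1 and the next highest for Mrgprb2. Over the 8 arrays their Pearson correlation was 0.45, and -0.31 after the mean of each genotype was subtracted. Both genes read within the range of the olfactory receptor genes, of which 16.4% had means above the flox/flox mean of Mrgprb1 and 62.8% above that of Mrgprb2.

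The promoters of this pair are shown because both genes had positive differences. They lie on the minus strand at chr7:48456293-48456592 for Mrgprb1 and chr7:48558037-48558336 for Mrgprb2 (GRCm38.p6, RefSeq, the same window around the gene start), and capitals mark runs of at least 9 bases that they share in the same order.
Mrgprb1: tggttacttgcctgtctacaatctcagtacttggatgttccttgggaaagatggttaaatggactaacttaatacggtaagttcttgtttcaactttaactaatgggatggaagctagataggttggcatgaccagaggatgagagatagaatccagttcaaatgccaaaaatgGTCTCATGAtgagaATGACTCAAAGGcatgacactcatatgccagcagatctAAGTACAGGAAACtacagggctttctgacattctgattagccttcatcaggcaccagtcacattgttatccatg
Mrgprb2: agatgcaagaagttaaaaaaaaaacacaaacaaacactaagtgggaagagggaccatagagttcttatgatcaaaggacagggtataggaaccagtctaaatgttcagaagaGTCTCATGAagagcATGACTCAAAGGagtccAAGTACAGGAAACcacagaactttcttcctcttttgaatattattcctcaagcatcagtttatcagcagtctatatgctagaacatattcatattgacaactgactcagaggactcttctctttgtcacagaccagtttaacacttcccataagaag
There were 3 such runs with 34 bases in all, the longest of 13 bases. Among the other 14 pairs of the 6 members with a promoter in the table the longest shared run was of 7 to 11 bases. The middle run holds the AP-1 motif TGACTCA in both promoters, and Mrgprb2 holds it once more. The SOX core ACAATG occurs, as its reverse complement, once in Mrgprb1, after the gene start, and in none of the other 5 windows. These matches are letters in a window and not evidence of binding.

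Mast cell genes were followed beside this pair. Of 16 listed mast cell genes 15 were measured, and 0 passed limma's test, while 4 had an unadjusted p under 0.05, all higher in flox/flox, as were 4.81% of all genes. They were Fcer1a, which encodes the IgE-binding part of the mast cell receptor for that antibody, at 0.69 ± 0.13 (SE), the tryptase Tpsb2 at 0.41 ± 0.11, and the chymases Mcpt4 and Cma1 at 0.42 and 0.33. Both means of Fcer1a, 48.5 in flox/+ and 89.9 in flox/flox glands, lay below the 95th percentile of the olfactory receptor genes. Over the 15 genes 12 differences were positive and the median was 0.07, against 47.4% positive and a median of -0.01 over all genes tested. The 3 negative ones were Tph1 at -0.26, Tpsab1 at -0.06 and Mcpt1 at -0.05. Their summed intensity ran from 3072 to 3580 in flox/+ and from 3193 to 4085 in flox/flox glands. The defining markers Cpa3 and Mcpt4 read above the 95th percentile of the olfactory receptor genes in every gland. So did Kit, which luminal epithelium also makes. Of the 15 genes 8 had a mean above that percentile. The mast cell score, the mean z-score of the list, correlated with Mrgprb1 at 0.69 over the 8 arrays and at 0.43 within genotypes. For Mrgprb2 the corresponding values were 0.02 and -0.67. Correlations of such size were not particular to mast cells. For Mrgprb1 they were 0.57 and 0.53 with the score of basal markers, and -0.78 and -0.54 with that of skeletal muscle genes. The mast cell score was 0.90, 0.49, -0.46 and 0.21 in flox/flox replicates 1 to 4 and -0.63, -0.09, -0.03 and -0.39 in flox/+ replicates 1 to 4. Flox/flox replicate 3 was lowest of its genotype for both the score and Mrgprb1, but its score lay below 3 of the 4 controls while its Mrgprb1 value lay above all 4. In flox/flox replicates 1, 2 and 4 the order of the scores was the reverse of that of Mrgprb1. The part of mast cell number in the difference of Mrgprb1 was not tested.

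Mrgprd, Mrgprf and Mrgprh did not separate the genotypes. Mrgprd, the receptor for beta-alanine on nerve endings of the skin, read 244.5, 282.2, 272.9 and 274.5 in the controls and 260.2, 238.5, 290.1 and 263.9 in the flox/flox glands. The ranges overlapped almost fully, and the log2 difference was -0.03 (95% interval -0.20 to 0.14). Its probe set was brighter than all but 11 of the olfactory receptor genes in flox/flox glands, but did not read above the range of Sry, the brightest Y-linked gene. Mrgprf, an orphan receptor first cloned from rat aorta, read between 103.2 and 138.0 in the controls and between 116.6 and 130.1 in the flox/flox glands, with a log2 difference of 0.07 (95% interval -0.12 to 0.26). Mrgprh, also an orphan, read 92.9, 71.0, 80.2 and 56.2 in the controls and 79.0, 53.8, 67.3 and 67.8 in the flox/flox glands, with a difference of -0.13 (95% interval -0.41 to 0.16). The intervals allow differences of up to 0.41 in size for Mrgprh and 0.26 for Mrgprf. Within the controls Mrgprh spread 1.65-fold, more than the distance between the genotype means.

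**Figure D3:**
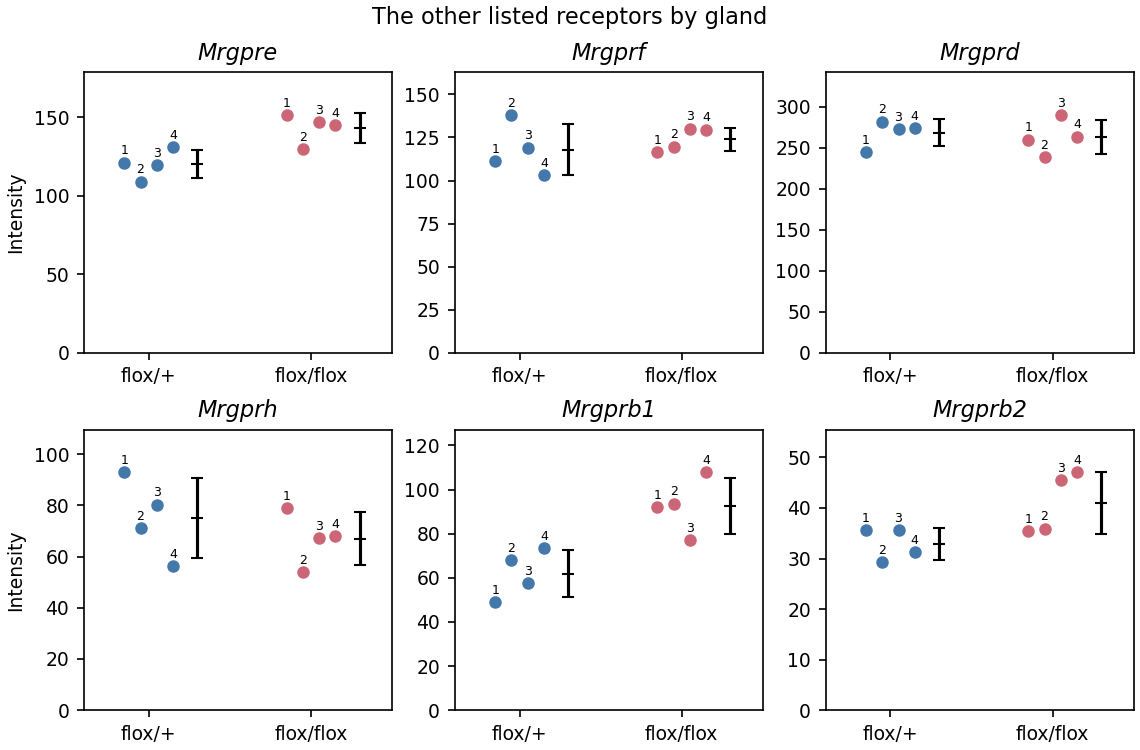
Intensity of the other 6 listed receptors in each gland after quantile normalization, with a linear axis from 0 in each panel, points numbered by replicate, and beside them the mean with its SD of the 4 glands. The genotypes do not overlap for Mrgprb1 (49.0 to 73.3 in flox/+, 77.1 to 107.8 in flox/flox) and overlap for the others.

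Leaving Mrgprg aside, 0 of the 6 other members passed limma's test after adjustment, against 0.0401% of all genes, and 3 of the 6 had an unadjusted p under 0.05, against 10.3% of all genes. All 3 were higher in flox/flox, as were 4.81% of all genes, while 5.46% were lower. The 6 were listed with earlier results of these data known, so these counts are a description and no support. The genotypes did not overlap for 1 of the 6, Mrgprb1, and for 5.9% of all genes, 2.74% higher and 3.16% lower in flox/flox. The median difference of the 6 was 0.14. The annotation gave another 11 Mrgpr genes a probe set of their own. Of these 0 passed the test and 1 had an unadjusted p under 0.05, Mrgpra3, the receptor of itch neurons that responds to chloroquine, at 127.0 ± 11.1 in flox/+ and 151.7 ± 21.3 in flox/flox glands (SD, n = 4; log2 difference 0.22 ± 0.10 SE). The other 10 lay between -0.12 for Mrgprb4 and 0.20 for Mrgprx2. The median of the 11 was -0.00, with 5 positive and 6 negative. Close copies among the Mrgpra and Mrgprb genes may share hybridising sequence, so single probe sets there are uncertain.

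**Figure D4:**
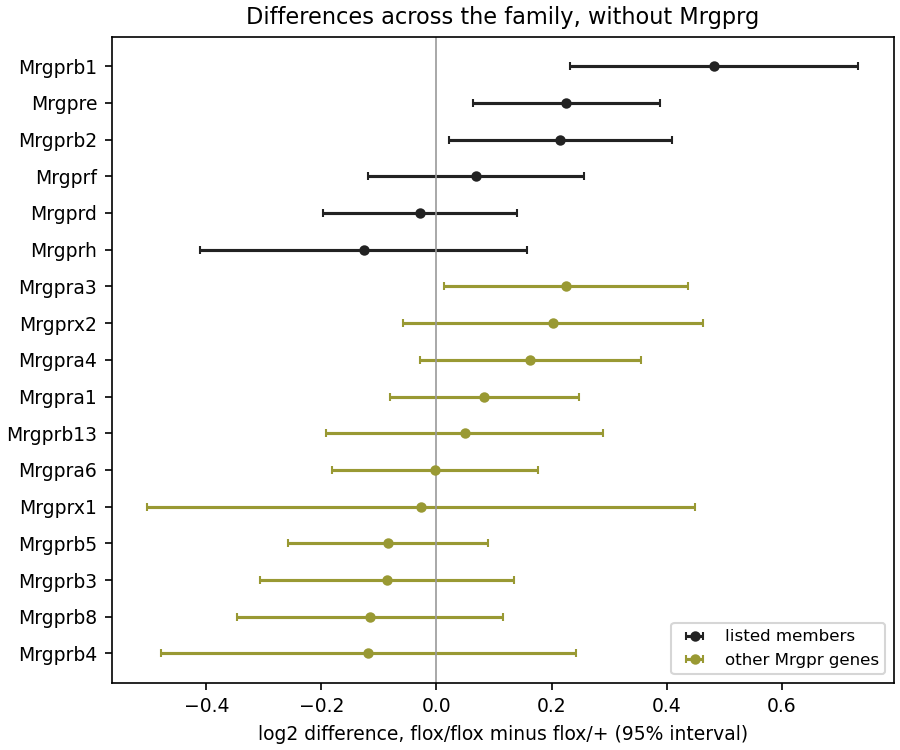
Log2 differences between genotypes, positive where flox/flox is higher, with 95% intervals from limma (n = 4 glands each), for the 6 other listed members (black) and the 11 further Mrgpr genes with a probe set of their own (olive); Mrgprg, at 4.36, is left out so that the scale can be read. The values run from -0.13 for Mrgprh to 0.48 for Mrgprb1.

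The genes whose pattern was most like that of Mrgprg over the 8 arrays were sought among 1442 genes with an SD of at least 0.25 on the log2 scale. The highest Pearson correlations were 0.98 for Duox2, a dual oxidase, 0.98 for the lipid-binding protein gene Sec14l1, 0.97 for the neutral sphingomyelinase gene Smpd3, 0.97 for the diacylglycerol lipase gene Daglb and 0.97 for the eosinophil-associated ribonuclease gene Rnase2a. All 5 were higher in flox/flox at an adjusted p under 0.05 (limma), among 8 genes passing in either direction with Mrgprg included. That number ran from 2 without replicate 4 of either genotype to 19 without flox/flox replicate 3. Over all probe sets it was 1, which was Mrgprg, so none of the 5 passed there. Mrgprg was chosen for its difference in this contrast, so its own passing is no support. A correlation over both genotypes mostly restates the distance between them. Once the genotype means were subtracted the correlations were 0.75 for Duox2, 0.60 for Sec14l1, 0.88 for Smpd3, 0.92 for Daglb and 0.87 for Rnase2a. Mrgprg spread 2.79-fold among flox/flox and 1.28-fold among flox/+ glands. Its correlations within genotypes, here and below, therefore rest mostly on flox/flox replicates 1 and 2. Flox/flox replicate 2 was the lowest flox/flox gland for all 6 genes, and replicate 1 was the highest for 4 of them, Mrgprg, Duox2, Smpd3 and Daglb. Smpd3 read 817, 303, 772 and 612 in flox/flox replicates 1 to 4, close to the 2.79-fold spread of Mrgprg with 2.70-fold, and Rnase2a spread 11.6-fold.

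The lowest correlations belonged to the mitotic motor Kif11 (-0.97), the matrix proteoglycan gene Kera (-0.95), Prom1 (-0.95), the kinetochore motor Cenpe (-0.93) and the formin Diaph3 (-0.93). Within genotypes these correlations lay between -0.53 for Diaph3 and -0.11 for Kif11. Ranked by the correlation within genotypes alone, the leading genes were the collagen Col6a5 (0.96), Olfr187 (0.95), the metalloprotease Adam8 (0.94), Cyp2d12 (0.94) and Daglb (0.92). Adam8 read 343, 236, 279 and 276 in flox/flox replicates 1 to 4 and 189 to 223 in the controls, and is made by several kinds of leukocyte. Olfr187, an olfactory receptor gene, read only 8.14 to 31.1 and Cyp2d12 11.9 to 39.2, both within background.

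**Figure D5:**
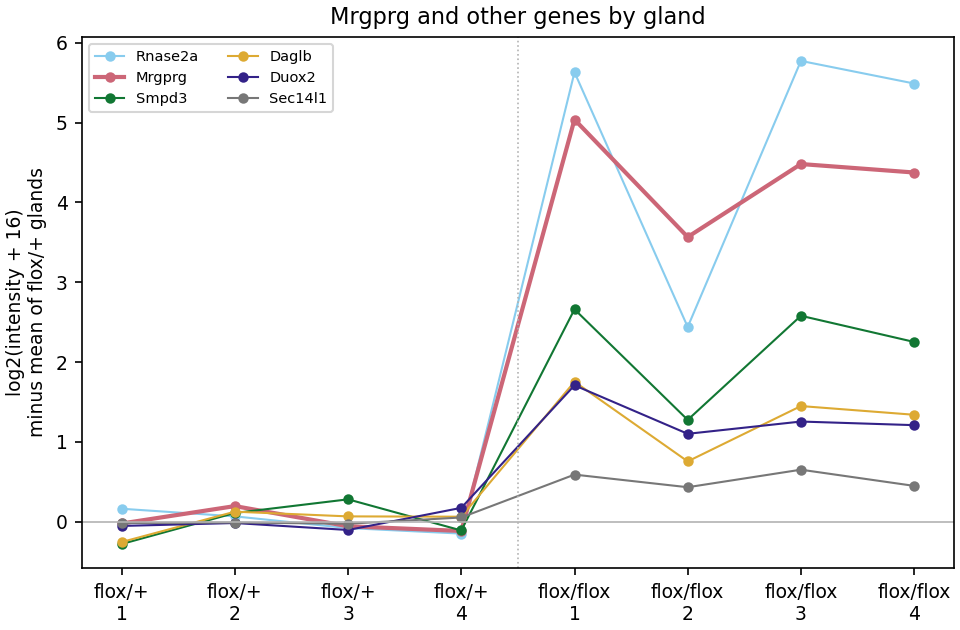
Log2 (intensity + 16) of Mrgprg and of the 5 genes most correlated with it, in each of the 8 glands, relative to the mean of the flox/+ glands; lines join the values of a gene and carry no order in time. All 6 genes are lowest among flox/flox glands in replicate 2.

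For the other members the 3 most correlated genes differed from these. Mrgpre was most like Duox1 (0.94, and 0.81 within genotypes), Ifi213 (0.93) and Adamtsl4 (0.93). Duox1, the dual oxidase beside Duox2, read 310, 199, 250.6 and 250.1 in flox/flox replicates 1 to 4 and 144.9 to 164.9 in the controls. Mrgpre also ran against Sox9 over the arrays, with correlations of -0.93 and, within genotypes, -0.80, whereas for Mrgprg the values were -0.84 and -0.43. The other members ran from -0.61 for Mrgprb1 to 0.26 for Mrgprh over the arrays. Within genotypes they ran from -0.50 for Mrgprd to 0.46 for Mrgprf. Mrgprb1 was most like the transcription factor gene Hlf (0.97), Gpr141b (0.96) and the ciliary neurotrophic factor receptor gene Cntfr (0.93). Mrgprb2 was most like Mboat1 (0.87), Mlph (0.87) and Ptx3 (0.83). Mrgprd was most like Ifi30 (0.91), Olfr1179 (0.88) and Lor (0.88), Mrgprf most like Olfr108 (0.83), Dsg1c (0.83) and Ripor2 (0.82), and Mrgprh most like 4931422A03Rik (0.91), Prl5a1 (0.89) and Cd70 (0.88).

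Eosinophil genes were followed beside Mrgprg. Of 10 listed genes 9 were measured, and 1 passed, Rnase2a, from 5.16 ± 2.07 to 798 ± 474 (SD, n = 4). Among the other 8 genes 0 passed limma's test, and 3 had an unadjusted p under 0.05, all higher in flox/flox, as were 4.81% of all genes. These were the eotaxin receptor gene Ccr3, the lipoxygenase gene Alox15 and the ribonuclease gene Ear6 (0.26 ± 0.10, SE). The groups did not overlap for 2 of the 8, Ccr3 and Alox15, both higher in flox/flox as 2.74% of all genes were. Of the 8 differences 7 were positive and 1, that of Prg2, negative, with a median of 0.16. Ccr3 read 191, 82.2, 106 and 129 in flox/flox replicates 1 to 4 and 62.7 to 77.6 in the controls. Alox15 read 782, 323, 496 and 625 in flox/flox replicates 1 to 4 and 230.1 to 258.4 in the controls. Without Rnase2a the summed intensity of the list ran from 1091 to 1192 in flox/+ and from 1098 to 1955 in flox/flox glands. The score without Rnase2a correlated with Mrgprg at 0.70 over the arrays and at 0.93 within genotypes. The latter value rests mostly on flox/flox replicates 1 and 2, where Mrgprg lay farthest from its genotype mean. That score was 1.02, -0.84, 0.85 and 0.44 in flox/flox replicates 1 to 4 and -0.57 to -0.19 in the controls. Flox/flox replicate 2 thus lay below every control for the score while its Mrgprg level of 1351 was above every control. Of the 9 genes 3, Siglecf, Rnase2b and Alox15, had means above the 95th percentile of the olfactory receptor genes in both genotypes, and Rnase2a in flox/flox only. The other 5, among them the granule protein genes Epx and Prg2 at 0.14 and -0.17, had means below it in both. Siglecf, an eosinophil surface lectin, read 268 ± 4.34 in flox/+ and 302 ± 54.0 in flox/flox glands (SD, n = 4), and Rnase2b 195 ± 38.7 and 226 ± 60.6. No listed gene was at 0, but neither was any Y-linked gene measured, so this does not show transcript. The part of eosinophil number in the level of Mrgprg was not tested.

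Genes for ligands and for signalling below the receptors held none past the threshold. At an unadjusted p under 0.05, 10.3% of all genes differed, 4.81% higher and 5.46% lower in flox/flox. Of 17 genes for reported ligand precursors, peptide-processing enzymes and the relative Mas1, 16 were measured and 0 passed limma's test, with 1 higher and 2 lower at an unadjusted p under 0.05 and a median difference of 0.00. Penk, the precursor of enkephalins and of peptides that act on Mas-related receptors of itch neurons, read 734, 570, 480 and 360 in flox/flox replicates 1 to 4 and 227, 259, 323 and 392 in the controls. Its log2 difference was 0.79 ± 0.21 (SE, adjusted p = 0.241), and the groups overlapped through flox/+ replicate 4 and flox/flox replicate 4. Agt, the angiotensin precursor, was at -0.47 ± 0.12 (adjusted p = 0.239), without overlap, and the antimicrobial peptide precursor Camp at -0.22 ± 0.09. Tac1, the precursor of substance P, which activates Mrgprb2, was at 0.17 ± 0.13. Of 33 listed genes for G proteins, phospholipases, calcium channels, kinases and arrestins that act below such receptors 29 were measured and 0 passed, with 3 higher and 0 lower at an unadjusted p under 0.05. The largest of these was the cation channel gene Trpc6 at 0.52 ± 0.14, and the protein kinase genes Prkcd and Prkca were at 0.19 ± 0.08 and 0.18 ± 0.08. Gnaq and Gna11, the G protein subunits that couple many Mas-related receptors to phospholipase C, were at 0.04 and 0.13.

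The lists of itch, nerve and smooth muscle genes likewise held none past the threshold, and their counts are to be read against the same 4.81% higher and 5.46% lower of all genes. Of 25 itch mediators and receptors 22 were measured, with 2 higher and 1 lower at an unadjusted p under 0.05 and a median of 0.00. The interleukin receptor gene Il13ra1 was at 0.31 ± 0.09 (SE), the leukotriene synthase gene Ltc4s at 0.26 ± 0.11 and the alarmin Il33 at -0.54 ± 0.22. Of 24 sensory nerve genes 22 were measured, with 1 higher and 2 lower at an unadjusted p under 0.05 and a median of 0.01. The neurotrophin receptor gene Ntrk2 was at -0.68 ± 0.14 (adjusted p = 0.137), with mean intensities of 527 ± 79.5 in flox/+ and 324 ± 63.0 in flox/flox glands (SD, n = 4), the neurofilament gene Nefh at -0.15 ± 0.06, and Stmn2 at 0.26 ± 0.10. Of the 22 genes 5 had means above the 95th percentile of the olfactory receptor genes in both genotypes, Ntrk2, Nefh, Prph, Gfra2 and Gfra3. Gfra3, a receptor subunit of small sensory neurons, had means of 202.9 in flox/+ and 218.0 in flox/flox glands. The other 17 had means below it in both, among them the sodium channel gene Scn10a at 51.5 and 47.4. The sensory nerve score correlated with Mrgprg at 0.12 over the arrays and at 0.82 within genotypes, the latter mostly through flox/flox replicates 1 and 2. The summed intensity of the list ran from 2815 to 3081 in flox/+ and from 2594 to 2898 in flox/flox glands. The part of nerve content in the level of Mrgprg was not tested. Of 19 smooth muscle and pericyte genes 18 were measured and 0 passed, with 2 higher and 2 lower at an unadjusted p under 0.05 and a median of 0.06. The potassium channel subunit gene Kcnmb1 was at 0.27 ± 0.07, the intermediate filament gene Synm at 0.18 ± 0.06, the adhesion molecule gene Mcam at -0.38 ± 0.12 and the growth factor receptor gene Pdgfrb at -0.23 ± 0.10. The score of this list correlated with Mrgprf at -0.23 over the arrays and at -0.51 within genotypes. The summed intensity of the list overlapped between the genotypes. Mrgprf had larger correlations with the B cell score (0.58 and 0.83) and the T cell score (0.55 and 0.78). Both of these scores, and Mrgprf itself, were highest in flox/+ replicate 2. Without that array the log2 difference of Mrgprf was 0.14. Of 12 Schwann cell genes 9 were measured and 0 passed, with 1 higher and 1 lower at an unadjusted p under 0.05, the myelin genes Pmp22 at 0.27 ± 0.11 and Ncmap at -0.27 ± 0.09.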

How the data were processed

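Total RNA of 8 glands was read on 1 array each. The authors deposited 1 linear intensity per probe set. The submitters' processing notes name PLIER and version 1.0 of Affymetrix Expression Console, and how background and differences between arrays were handled is not stated there. The table holds 35557 probe sets with no detection calls. Of these 21789 carry 1 gene symbol in the platform annotation, 1621 several and 12147 none. The brightest single-symbol probe set was taken for each of 19938 genes. An offset of 16 was added, log2 taken and the whole table quantile normalized. The fit was limma 3.58.1 (lmFit and eBayes, R 4.3.3), with Benjamini-Hochberg adjustment over all genes, and the code was tested on simulated data. P-values measure the spread among 4 arrays per genotype, whose number limits precision. Promoters came from RefSeq, which held 6 of the 7 members and not Mrgprf.

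The members, gene lists and tests were chosen with earlier results of these data known. By rule the text names all Mrgpr genes, Sox9, the genes next to Mrgprg and those most correlated with each member. It also names up to 4 passing genes of a list or else the 2 with the smallest p, and most genes of counts up to 5. The list part of the rule was followed for the ligand, signalling, itch, nerve, Schwann cell, mast cell, eosinophil and smooth muscle lists only. Kit, Cpa3, Epx, Scn10a, Lgr5, Tac1, Gnaq and Gna11 were added outside the rule, after their values were seen. Lists of fibroblast, endothelial, macrophage, T cell, keratinocyte and skeletal muscle genes were checked too, and 0 of their genes passed. Alternative settings are given in the closing section.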

Additional observations from a re-analysis of the deposited data

Results flagged for a closer look

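In 13 of 188 groups of 4 glands (94 genes, both genotypes) 1 value stood far from the other 3, which is 6.91% where chance gives about 1 in 20. The 94 were the Mrgpr genes with their own probe set, Sox9, the neighbours, the correlated genes and the rule's picks from every list. Some of them are not named above. Some genes named above, such as Kit, Cpa3, Ccr3 and Alox15, were not checked. None of the 7 listed receptors was among the 13. Of the genes most like Mrgprg, Rnase2a was low in flox/flox replicate 2 (98.3, against 931 to 1136 in the other flox/flox glands) and Daglb was low in flox/+ replicate 1 (186). Of the genes least like it, Prom1 was low in flox/+ replicate 2 (137). Of the genes most like other members, Hlf was low in flox/flox replicate 3 (469), the flox/flox gland that was also lowest for Mrgprb1. Ripor2 was high in flox/+ replicate 2 (306), and 4931422A03Rik was low in flox/+ replicate 4 (36.5), the control that was also lowest for Mrgprh. These genes were picked for their correlation with a member over the same arrays, so a gland shared with it is no independent result. Among the context genes Agt was high in flox/+ replicate 4 (242), Pmp22 low in flox/+ replicate 2 (1632), Plin4 high in flox/flox replicate 2 (3205), Pparg low in flox/flox replicate 4 (1929), Krt27 high in flox/+ replicate 1 (133) and Acta1 low in flox/+ replicate 4 (457). Of the neighbours of Mrgprg, Tnfrsf22 was high in flox/+ replicate 3 (285).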

How the results depend on the processing

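The number of genes past the threshold was 8. It was also 8 with array weights, with the mean over probe sets, from the deposited values without further normalization, and with a block for the replicate number. It was 18 with median centring, 17 with the trend and robust options, 19 with an offset of 64, 4 with an offset of 1, 3 without the lowest tertile of genes and 1 over all probe sets. With 1 array left out it ran from 2 to 19: 2 without flox/+ or flox/flox replicate 4, 4 without flox/+ or flox/flox replicate 1, and 19 without flox/flox replicate 3. The causes were not tested. The log2 difference of Mrgprg stayed between 3.89 and 4.62 over 18 alternatives, and between 4.14 and 4.62 with 1 array left out. None of the other 6 members passed in an alternative that tested it, and the lowest adjusted p was 0.120 for Mrgprb1, 0.235 for Mrgpre and 0.391 for Mrgprb2 (limma). The difference of Mrgprd ran from -0.0733 to 0.0148 with 1 array left out and was 0.0148, with its sign changed, without flox/flox replicate 2, and the other members kept their sign. Same-numbered arrays correlated at -0.20 to 0.21 in their deviations from the genotype means, and 2 of the 4 flox/+ arrays were closest to their own number, so the numbers were not treated as pairs. Without detection calls, differences between dim probe sets are limited by background.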

Other observations

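The annotation gave 3 further probe sets several Mrgpr symbols, so they stand for no single gene. The probe set of Mrgprx3-ps and Mrgpra9 read between 0.0786 and 30.9 in flox/+ and between 0.341 and 25.0 in flox/flox glands, with a log2 difference of 0.30 ± 0.40 (SE). Of the 2 probe sets shared by 6 Mrgpra symbols, 1 read 121.1 to 129.8 in flox/+ and 125.1 to 153.2 in flox/flox glands (0.12 ± 0.07), and the other 132.1 to 146.3 and 131.2 to 155.1 (0.03 ± 0.07). None passed limma's test over all probe sets (adjusted p 0.651 to 0.914).

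Among the members, Mrgprg and Mrgpre had the highest correlation over the 8 arrays (0.85, and 0.48 within genotypes). For Mrgprg and Mrgprb1 the value was 0.81 over the arrays and -0.06 within genotypes. Mrgprh and Mrgprb1 ran against each other in both (-0.59 and -0.61).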
